A study of Mus musculus with 8 samples.

Results

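The 10 genes listed here belong to the elongin and cullin ubiquitin ligase system and were followed in mouse MII oocytes with and without Setd1b. They were Elobl, Elob and Eloc (elongin B-like protein, elongin B and elongin C), Skp1a, the cullins Cul1, Cul2, Cul3 and Cul4b, Ddb1 and Rbx1, and were picked by name, with their difference between the genotypes already known. All 10 genes were found among the 37224 genes of the count table, and all 10 were among the 11066 genes with enough counts to be tested. Elob and Eloc are also known as Tceb2 and Tceb1, and Elobl as Gm15698. Because the choice of genes used the comparison itself, the differences of the 10 genes are given as a description, without a test.

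Cullin ligases attach ubiquitin to proteins and so mark many of them for breakdown by the proteasome. A cullin is the scaffold: its one end binds the RING protein Rbx1, which brings the ubiquitin-loaded enzyme, and its other end binds an adaptor that holds an exchangeable receptor for the protein to be marked. Elongin B and elongin C form the adaptor of Cul2 and Cul5 and also join elongin A in a transcription elongation factor. Skp1 carries F-box proteins on Cul1, Ddb1 carries DCAF proteins on the Cul4 cullins, and BTB proteins bind Cul3 directly. In oocytes, Cul1 ligases with F-box proteins are known for their roles in meiotic arrest and in its release.

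Each library came from 1 oocyte at MII, the metaphase arrest of the second meiosis. The 4 knockout libraries came from superovulated Setd1bGdf9cKO mice, a conditional knockout of the histone H3 lysine 4 methyltransferase Setd1b whose name carries that of Gdf9, an oocyte growth factor gene, and the 4 control libraries came from superovulated control mice, whose alleles the labels do not describe. Neither the Cre line beyond that name, the deleted part of Setd1b, the strain nor the age is given in the sources used here. The labels do not say whether the oocytes of a group came from different females, so all p-values measure the spread between these libraries only.

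The libraries held 9488899 to 13519404 counts each. Setd1b itself was measured at 4.42, 5.05, 2.96 and 3.54 CPM in knockout replicates 1 to 4 and at 10.7, 12.8, 9.22 and 10.9 CPM in control replicates 1 to 4, where CPM is a gene's share of the counts, on the usual CPM scale, with totals scaled for composition by the trimmed mean of M-values (TMM). It was lower in every knockout library (log2 fold change -1.44 ± 0.41 SE, edgeR quasi-likelihood test with Benjamini-Hochberg adjusted p = 0.02214), and reads outside the deleted part can remain. All 12 oocyte markers examined, such as Zp3 and Gdf9, were expressed, with a summed level of 9979 to 16113 CPM in knockout and 11327 to 14171 CPM in control libraries. Of 20 cumulus and granulosa cell markers, 9 (Amh, Amhr2, Foxl2, Fst, Inha, Inhbb, Lhcgr, Ptx3 and Tnfaip6) had no count in any library. The others (Inhba, Has2, Cyp19a1, Fshr, Hsd17b1, Ptgs2, Nr5a2, Cyp11a1, Star, Kitl and Esr2) had counts, and 5 of the 20 had enough to be tested. Whether these counts came from the oocyte or from attached cells was not tested. The summed level of all 20 was 133 to 197 CPM in knockout and 240 to 257 CPM in control libraries. The part of that difference in the results below was not tested. Over all tested genes, 2850 differed at an adjusted p under 0.05 (25.8%), with 1503 higher in knockout (13.6%) and 1347 lower (12.2%). The median of all log2 fold changes was 0.10. With library totals in place of TMM factors the median was 0.49 and the split 2377 higher and 510 lower, so directions close to 0 depend on the scaling.

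Elob encodes elongin B, the ubiquitin-like subunit of the elongin pair, and Elobl an elongin B-like protein. Whether that protein takes the place of elongin B was not tested. The coding sequences of both genes were aligned end to end. The start of each is shown because it shows how far the counts of these genes can be told apart. The coding sequence is 483 bases long in Elobl and 354 in Elob (GENCODE M21 transcripts Elobl-201 and Elob-201), and 276 aligned bases are identical, 78.0% of those outside gaps. Over the 120 bases from the start codon, 98 are identical, with 0 gaps, and capitals mark the bases that differ.
Elobl: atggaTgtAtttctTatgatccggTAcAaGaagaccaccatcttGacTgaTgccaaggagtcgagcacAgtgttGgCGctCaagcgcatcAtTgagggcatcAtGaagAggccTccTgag
Elob: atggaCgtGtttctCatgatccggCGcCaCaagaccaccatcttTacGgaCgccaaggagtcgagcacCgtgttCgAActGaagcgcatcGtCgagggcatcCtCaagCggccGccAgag
Differences are spread along the stretch. No window of 75 bases, the read length, was shared between the transcripts of Elobl and Elob. Of the 769 such windows of Elobl, 38 (4.9%) also occurred in Coil or in 2210409E12Rik, a gene model that lies within the span of Coil. For Elob, 81 of 463 windows (17.5%) also occurred in other gene models, so part of its reads could have been assigned elsewhere.

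Elobl, the elongin B-like gene, lies on the minus strand of chromosome 11 (mm10 chr11:88964658-88966931, 873 bp of exon). It was measured at 4107, 4007, 3141 and 2345 CPM in knockout replicates 1 to 4 and at 188, 159, 117 and 271 CPM in control replicates 1 to 4. The lowest knockout library lay far above the highest control library. Knockout oocytes had a mean of 3400 ± 826 CPM (SD, n = 4) and controls one of 184 ± 65.1 CPM, an 18.5-fold difference, with a log2 fold change of 4.21 ± 0.29 (SE). The raw counts summed to 168146 over the knockout and 7824 over the control libraries, so counting error is small beside the spread between oocytes. Per kilobase of exon, the level was 3895 ± 947 CPM per kb in knockout and 210 ± 74.6 in control, and Elobl moved from rank 297 among tested genes in control to rank 5 in knockout. It alone took 0.266% to 0.499% of all counts of a knockout library and 0.0110% to 0.0217% of a control library. These values are shares of the polyadenylated RNA captured from 1 oocyte, so more Elobl mRNA, a longer tail on it and less of other RNA cannot be told apart.

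Elob, elongin B itself, was a low gene in the same oocytes (minus strand, chr17:23824740-23829109, 508 bp of exon). It was measured at 18.3, 24.0, 23.8 and 15.2 CPM in knockout replicates 1 to 4 and at 4.51, 1.20, 0.988 and 2.40 CPM in control replicates 1 to 4. The groups did not overlap, and control replicate 1 stood above the other controls. The means were 20.3 ± 4.32 and 2.27 ± 1.61 CPM, 8.93-fold, and the log2 fold change was 3.17 ± 0.52, or 3.73 without control replicate 1. Only 92 counts were collected over the 4 control libraries, against 990 over the knockout libraries. Per kilobase, Elobl exceeded Elob by 24.2-fold to 77.2-fold in control libraries and by 76.8-fold to 131-fold in knockout libraries. Elobl therefore made up 96.0% to 98.7% of the summed Elobl and Elob level per kilobase in control and 98.7% to 99.2% in knockout oocytes.

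Eloc, elongin C, which binds both elongin B and the receptor, was abundant in all libraries (minus strand, chr1:16642766-16656865, 954 bp of exon). It was measured at 1196, 1580, 1318 and 1175 CPM in knockout replicates 1 to 4 and at 521, 255, 275 and 451 CPM in control replicates 1 to 4. Every knockout library lay above every control library. The means were 1317 ± 186 and 376 ± 131 CPM, 3.51-fold, with a log2 fold change of 1.81 ± 0.24. Elobl, Elob and Eloc were thus all higher in knockout oocytes, and by unequal amounts. The ratio of Elobl plus Elob to Eloc, in CPM per kb, was 3.78, 2.80, 2.64 and 2.20 in knockout replicates 1 to 4, against 0.410, 0.689, 0.469 and 0.667 in control replicates 1 to 4. Every knockout oocyte lay above every control oocyte. This ratio is taken within a library and does not depend on the scaling between libraries, but its size depends on the exon lengths. The count table gives Eloc 954 bp, whereas its GENCODE transcript Eloc-208 is longer, so which of the partners had more transcripts is not read from it.

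**Figure D1:**
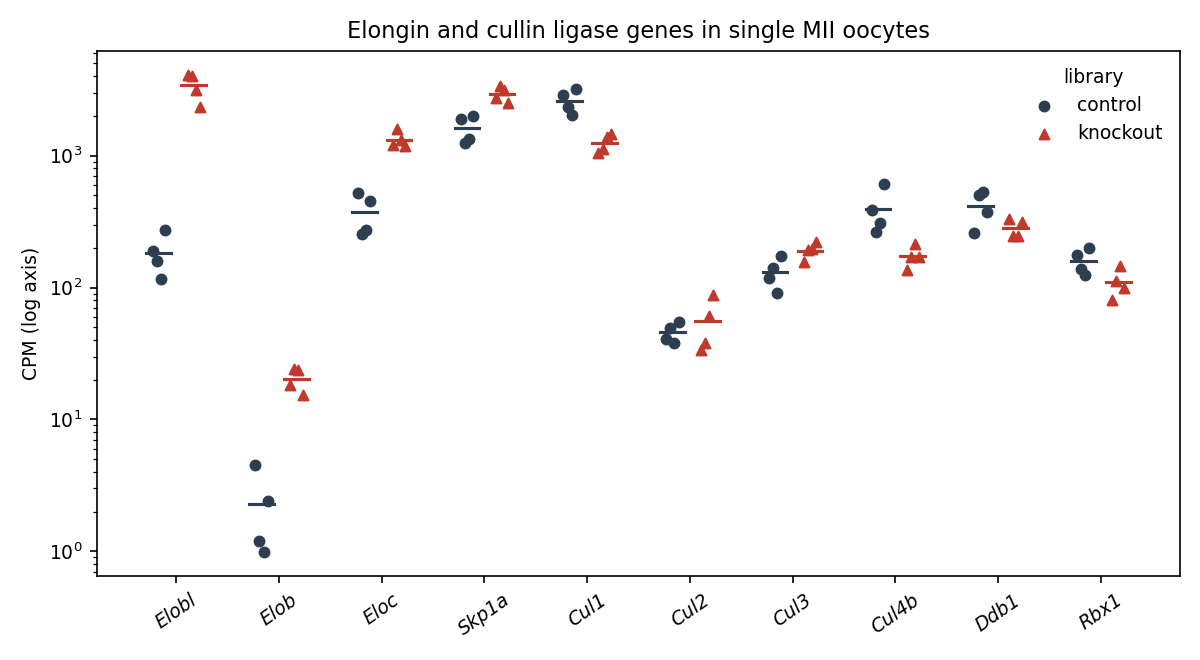
CPM (log axis) of the 10 genes in each of the 8 single-oocyte libraries, with control libraries as circles, knockout libraries as triangles and group means as horizontal lines. Elobl, Elob, Eloc and Skp1a lie higher in all 4 knockout libraries, Cul1 and Cul4b lie lower, and the groups of the other genes overlap.

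Skp1a, the adaptor that links F-box proteins to Cul1, was among the more abundant transcripts of both groups (plus strand, chr11:52231995-52246858, 2211 bp of exon). It was measured at 2737, 3348, 3121 and 2519 CPM in knockout replicates 1 to 4 and at 1895, 1246, 1343 and 2008 CPM in control replicates 1 to 4. The groups did not overlap, though the gap between them was narrower than for the elongins. The means were 2931 ± 373 and 1623 ± 384 CPM, 1.81-fold, with a log2 fold change of 0.85 ± 0.19. Skp1a and Eloc are related proteins with the same place in their ligases, and per kilobase, by the same exon lengths, they ranked 24 and 23 among tested genes in knockout oocytes, against 67 and 139 in control oocytes.

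Cul1, the scaffold on which Skp1 sits, differed in the opposite direction (plus strand, chr6:47453398-47526139, 4058 bp of exon). It was measured at 1042, 1115, 1386 and 1466 CPM in knockout replicates 1 to 4 and at 2858, 2344, 2019 and 3198 CPM in control replicates 1 to 4. Every knockout library lay below every control library. The means were 1252 ± 206 and 2605 ± 525 CPM, 2.08-fold higher in control, with a log2 fold change of -1.06 ± 0.19. The ratio of Skp1a to Cul1, in CPM per kb, was 4.82, 5.51, 4.13 and 3.15 in knockout replicates 1 to 4, against 1.22, 0.975, 1.22 and 1.15 in control replicates 1 to 4. By the exon lengths of the count table, the mean ratio was 1.14 ± 0.115 in control oocytes, and the mean ratio in knockout oocytes was 4.4 ± 1.01. Skp1a was higher and Cul1 lower in every knockout library, so this ratio could not overlap between the groups. It restates the differences on which both genes were chosen. Cul1 was the major cullin of the 4 in both groups, with 79.2% to 84.1% of their summed level per kilobase in control and 74.9% to 77.4% in knockout libraries. An antisense gene model, A930035D04Rik, overlaps 192 exon bases of Cul1 and held at most 3 counts in any library.

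Cul4b, a scaffold for Ddb1 and its DCAF receptors, was also lower in knockout oocytes (minus strand, chrX:38533274-38576196, 3873 bp of exon). It was measured at 136, 169, 215 and 171 CPM in knockout replicates 1 to 4 and at 384, 265, 310 and 614 CPM in control replicates 1 to 4. The groups did not overlap, and control replicate 4 stood highest. The means were 173 ± 32.8 and 394 ± 155 CPM, 2.28-fold higher in control, with a log2 fold change of -1.19 ± 0.26. Its adaptor Ddb1 (plus strand, chr19:10605625-10629813, 4155 bp of exon) was measured at 330, 245, 245 and 311 CPM in knockout replicates 1 to 4 and at 261, 505, 526 and 371 CPM in control replicates 1 to 4. The Ddb1 groups overlapped through the low value of control replicate 1, and the log2 fold change was -0.56 ± 0.22. The ratio of Ddb1 to Cul4b per kilobase spanned 1.06 to 2.27 in the knockouts and 0.562 to 1.77 in the controls, so it overlapped between the groups.

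Cul3, the scaffold for BTB proteins, was measured at 155, 192, 195 and 220 CPM in knockout replicates 1 to 4 and at 118, 141, 90.9 and 172 CPM in control replicates 1 to 4 (minus strand, chr1:80264923-80340480, 4873 bp of exon). The groups overlapped at 155 and 172 CPM, and the log2 fold change was 0.55 ± 0.21. Cul2, the scaffold for elongin BC with receptors such as Vhl (chromosome 18, plus strand, 4138 bp of exon), was measured at 33.8, 37.7, 61.2 and 88.4 CPM in knockout replicates 1 to 4 and at 40.6, 49.5, 38.0 and 54.7 CPM in control replicates 1 to 4. The knockout libraries enclosed the whole control range. The log2 fold change of Cul2 was 0.27 ± 0.31, and it was -0.04 without knockout replicate 4, so no direction can be given. Cul2 was the lowest of the 4 cullins, and the ratio of Eloc to Cul2 per kilobase spanned 22.4 to 55.7 in the controls and 57.7 to 182 in the knockouts.

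Rbx1, the RING subunit that these cullins share, was measured at 80.7, 112, 146 and 99.7 CPM in knockout replicates 1 to 4 and at 175, 139, 124 and 199 CPM in control replicates 1 to 4 (plus strand, chr15:81466316-81476369, 1655 bp of exon). The groups overlapped, and the log2 fold change was -0.54 ± 0.22. Of its 2011 windows of read length, 100 (5.0%) are shared with the pseudogene copy Rbx1-ps, which was counted at 90.7 ± 22 CPM in knockout and 133 ± 42.1 CPM in control oocytes, so reads of the gene and the copy may have been exchanged and both levels are uncertain. The ratio of Rbx1 to the summed 4 cullins, per kilobase, was 0.126, 0.123, 0.123 and 0.121 in control replicates 1 to 4, against 0.147, 0.185, 0.196 and 0.128 in knockout replicates 1 to 4. It was nearly the same in all control oocytes. In the knockout oocytes it was higher, with a wider spread, and replicate 4 lay only just above the controls. Cul1, which was lower in every knockout library, made up 74.9% to 84.1% of the summed cullins over all libraries. Rbx1 itself was not higher, so no rise of Rbx1 is read from this ratio.

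**Figure D2:**
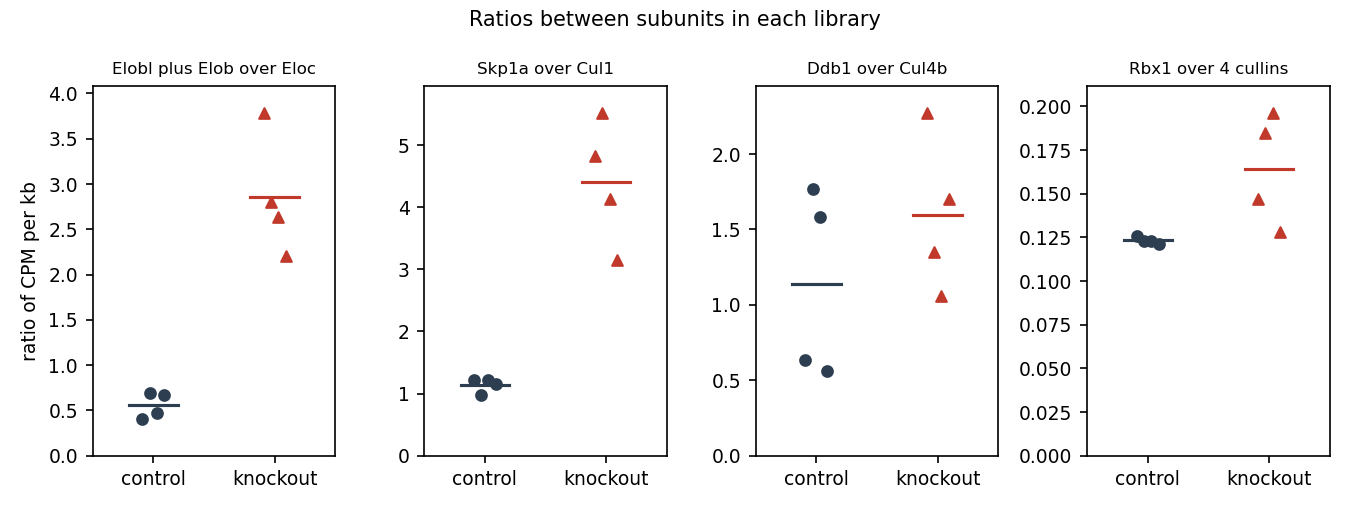
Ratios between subunits in CPM per kb of exon for each library, control as circles and knockout as triangles, with group means as lines; each axis starts at 0. Elobl plus Elob to Eloc and Skp1a to Cul1 do not overlap between the groups, while Ddb1 to Cul4b does. Skp1a to Cul1 could not overlap, because Skp1a is higher and Cul1 lower in every knockout library. Rbx1 to the 4 cullins nearly touches, at 0.128 in the lowest knockout and 0.126 in the highest control library.

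Of the 10 genes, 4 were higher and 2 lower without overlap between the groups, and 4 overlapped. Over all tested genes 17.7% were higher and 13.6% lower without overlap. Nothing is read from the comparison of these shares, because the 10 genes were chosen on this contrast. The authors' deposited table was made from the same libraries, so it gives no independent support. It lists 2709 genes with an adjusted p of at most 0.009996, the same 6 genes among them. Its unshrunken log2 fold changes were 4.16 for Elobl, 3.14 for Elob, 1.77 for Eloc, 0.81 for Skp1a, -1.10 for Cul1 and -1.23 for Cul4b. Under the other scalings, filters and tests the 10 directions did not change with all libraries included, but with library totals only the log2 fold change of Skp1a was 1.27, that of Cul1 was -0.65, that of Cul3 was 0.95, that of Ddb1 was -0.18 and that of Rbx1 was -0.14.

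**Figure D3:**
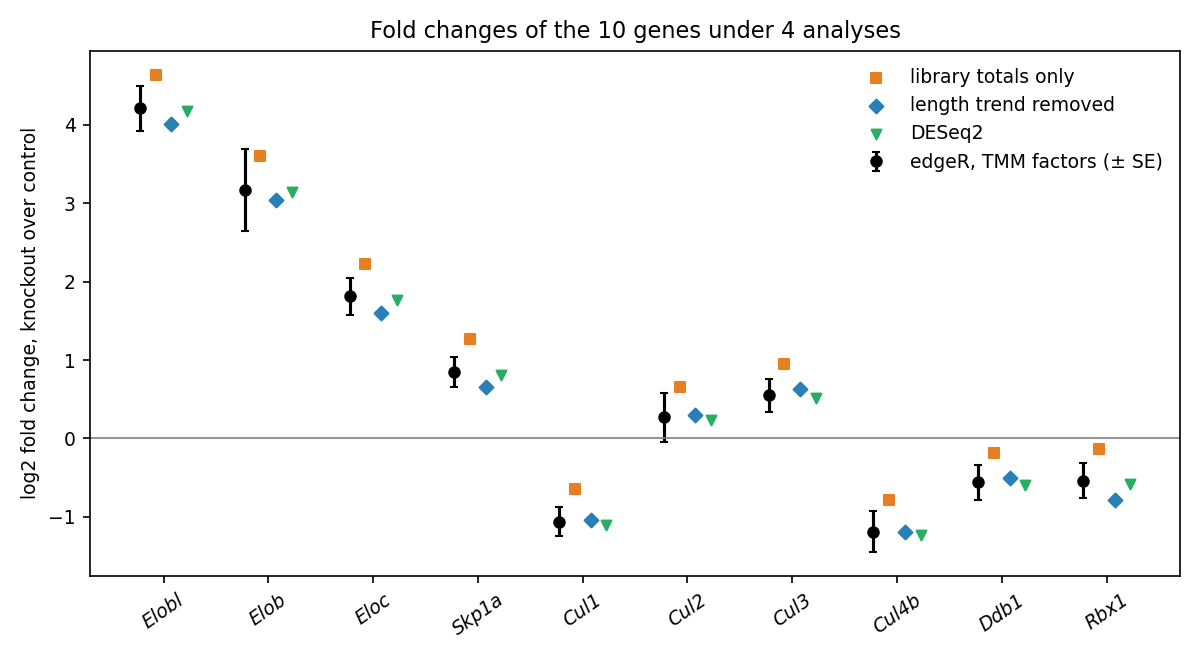
Log2 fold change, knockout over control, of the 10 genes from edgeR with TMM factors (black, bars are ± 1 SE) and under library totals, with the length trend removed and with DESeq2. Library totals move all points up, and the order of the genes from Elobl to Cul4b stays nearly the same.

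The individual oocytes varied within their groups. Among the controls, replicates 1 and 4 were the pair with the highest values of Elobl, Elob, Eloc, Skp1a, Cul1, Cul4b and Rbx1. The same libraries had the lowest TMM factors, 0.824 and 0.800, against 0.927 and 0.947 for the other controls and 1.07 to 1.22 in knockout libraries. The part of this scaling in the spread was not tested. Among the knockouts, Elobl was highest in replicate 1 and lowest in replicate 4, whereas Cul1, Cul2 and Cul3 were lowest in replicate 1 and highest in replicate 4.

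The genes that were higher in knockout oocytes were also among the shorter ones. Elobl, Elob, Eloc and Skp1a span 508 to 2211 bp of exon, and Cul1 and Cul4b span 4058 and 3873 bp, although Rbx1, at 1655 bp, was not higher. Over all tested genes the median log2 fold change was 0.28 for genes of up to 1000 bp, 0.35 from 1000 to 2000 bp, 0.28 from 2000 to 3000 bp and 0.07 from 3000 to 4000 bp. It was 0.04 from 4000 to 6000 bp and -0.11 above 6000 bp. With each library's trend on length removed, the log2 fold changes were 4.01 for Elobl, 3.04 for Elob, 1.60 for Eloc, 0.65 for Skp1a, -1.04 for Cul1 and -1.19 for Cul4b, so each of these 6 genes kept its direction.

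The sequence before the transcription start was examined because H3 lysine 4 methylation is found at CpG-rich promoters. The 250 bases before the start are shown for Elobl and Elob, which stand far apart in this respect, from RefSeq on GRCm38.p6 and with each CpG in capitals. The Elobl sequence is chr11:88966932-88967181 and the Elob sequence chr17:23829110-23829359, both on the minus strand.
Elobl: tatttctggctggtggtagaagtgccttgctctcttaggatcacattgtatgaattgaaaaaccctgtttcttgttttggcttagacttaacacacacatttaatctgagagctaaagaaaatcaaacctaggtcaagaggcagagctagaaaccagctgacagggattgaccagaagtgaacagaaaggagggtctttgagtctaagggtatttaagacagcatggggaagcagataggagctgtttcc
Elob: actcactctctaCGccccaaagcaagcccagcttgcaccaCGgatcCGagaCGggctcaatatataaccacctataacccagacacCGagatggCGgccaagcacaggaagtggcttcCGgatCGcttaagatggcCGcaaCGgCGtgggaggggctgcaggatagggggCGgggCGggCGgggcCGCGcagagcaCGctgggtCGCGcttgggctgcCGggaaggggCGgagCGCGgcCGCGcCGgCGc
The Elobl sequence holds no CpG and 42.4% G and C, and the Elob sequence holds 27 CpG and 68.0% G and C. Among all 32851 mouse promoters of the table, 2584 (7.9%) have no CpG in this window, and the median is 6. Such promoters were rarer among the 8186 tested genes with an entry, where 128 had none at the first listed start.

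The other genes with an entry lay at 5 CpG or above. Skp1a had 24 CpG, Cul3 23, Ddb1 19, Rbx1 24 and Cul4b 9, and the 3 listed starts of Cul1 had 5, 38 and 39. Entries were found for 8 of the 10 genes, and Eloc and Cul2 were not among them. Among the tested genes with an entry, the 128 without a CpG had a median log2 fold change of -0.33, with 7.8% higher and 17.2% lower in knockout oocytes. The 1114 genes with 1 to 5 CpG had a median of -0.04, with 9.2% higher and 15.2% lower. For the 2670 genes with 6 to 15 CpG it was 0.25, with 15.4% higher and 10.5% lower. The 4274 genes with more than 15 CpG had a median of 0.08, with 14.3% higher and 13.7% lower. The median thus did not rise steadily with CpG. Elobl was chosen on this contrast, so its place above the class medians says nothing about CpG content. Known core and factor motifs were searched on both strands of the same windows. The TATA box letters TATAAA occurred in 12.4% of all promoters and before none of the 8 genes. The homeodomain letters TAATTG occurred in 7.2% of all promoters and, of the 8 genes, before Cul4b only. The ETS letters CCGGAA occurred in 12% of all promoters, Elob and the second listed start of Cul1 among them. The CCAAT box occurred in 33.8% of all promoters and before Cul4b and Rbx1. Elobl held none of these motifs. A match or its lack is a description of these letters only.

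**Figure D4:**
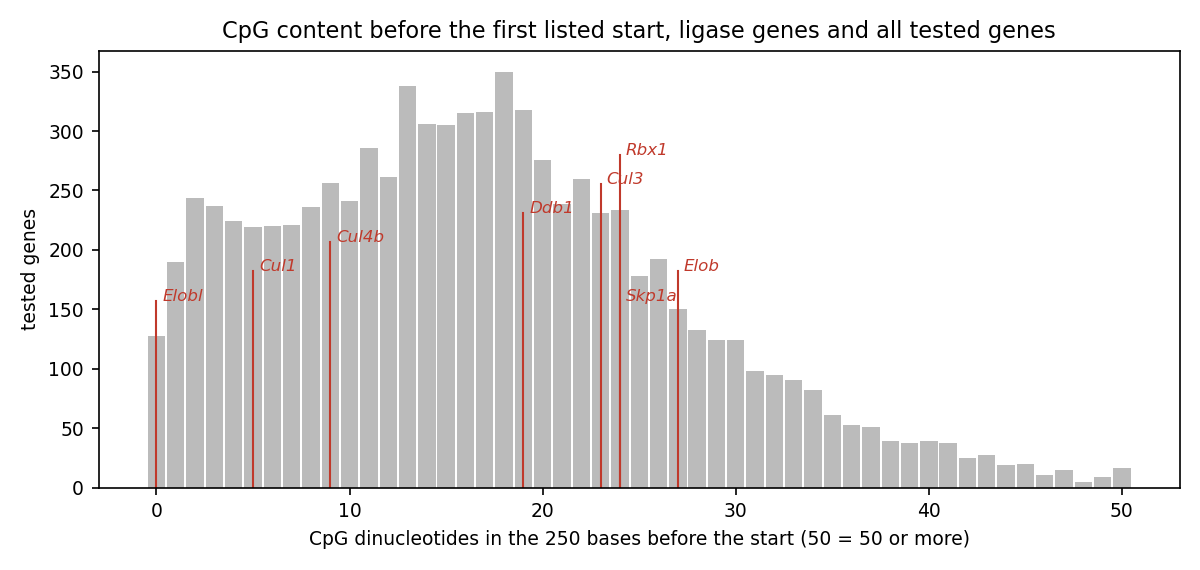
Number of tested genes by the count of CpG dinucleotides in the 250 bases before the first listed RefSeq start (bars), with red lines for the 8 ligase genes in the table; the height of a red line has no meaning. Elobl stands at 0 CpG and Elob at 27, and Cul1 is drawn at 5, its first listed start.

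At the 3′ end, where the reverse transcription starts, all 10 genes carried a poly(A) signal (AATAAA or ATTAAA) in the last 100 bases of the chosen transcript or, for Elobl, in its 95 bases of 3′ UTR. Among 10026 tested genes with a coding transcript, 79.8% did. A cytoplasmic polyadenylation element, searched as TTTTAT or TTTTAAT, was found in Cul3 and Rbx1 and in 20.4% of those genes. The other members had none in this window, both those without overlap between the groups and Cul2 and Ddb1, which overlapped. Among the tested genes, the median log2 fold change was -0.2 for those with the element and 0.2 for those without.

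The genes next to Elobl were measured separately. Scpep1, a serine carboxypeptidase gene that lies downstream of Elobl on the same strand, was lower in every knockout library, at 108 ± 7.13 against 221 ± 26.1 CPM (log2 fold change -1.03 ± 0.16, edgeR adjusted p = 0.00101). Coil, on the other side and on the opposite strand, was measured at 4.63 ± 2.04 CPM in knockout and 2.04 ± 1.62 CPM in control oocytes (log2 fold change 1.18 ± 0.72, edgeR adjusted p = 0.2539). The high value of Elobl was thus not shared by either neighbour at that size.

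The genes whose pattern over the 8 libraries was most like that of Elobl were found by the root mean square difference of centred log2(CPM + 1) values. They were Calm2, which encodes calmodulin (difference 0.250), the histone H2B gene Hist1h2bc (0.304), Cox6a1, a subunit of cytochrome c oxidase (0.377), the proteasome subunit Psmb7 (0.434) and the processed pseudogene Gm6798 (0.434). Calm2 was at 706 ± 124 CPM in the knockouts, against 35.5 ± 9.53 CPM in controls (log2 fold change 4.31). The log2 fold change of Gm6798 was 5.12, and 5.86 without control replicate 4. The other 4 were at 26.4 to 104 CPM in knockout and 0.756 to 8.67 CPM in control, all far below Elobl. Among 6495 genes ranked in this way, Elob stood at rank 46, Eloc at 225 and Skp1a at 891, and Cul1 and Cul4b at 5903 and 5995. These ranks largely restate the log2 fold changes on which the 10 genes were chosen, so no shared pattern is read from them. The added 1 also shrinks the differences of low genes, such as Psmb7, whose fitted log2 fold change was 5.14.

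The rest of the pathway was taken from 7 lists of 283 other genes, 205 of them tested. Of these, 23 rose and 37 fell, or 29.3% against 25.8% of all tested genes, with 18.0% lower against 12.2% overall. Their median log2 fold change was -0.06 and that of all tested genes 0.10. These counts describe the lists, and the split depends on the scaling: with library totals only, 35 were higher and 19 lower. The tested list genes had a median of 4219 bp of exon, against 3580 bp for all tested genes. With each library's trend on length removed, 26 list genes were higher and 32 lower, with 1532 and 1241 over all tested genes. The part of gene length in the share of lower genes was not tested.

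Elongin A, the partner of elongin B and C in transcription, was listed with other transcription elongation factors, most of which do not bind elongins. Of 24 tested genes of that list, 3 rose (12.5%, against 13.6% of all tested genes) and 1 fell (4.17%, against 12.2%). The other 20 did not pass, and the median log2 fold change of the list was 0.33. Leo1, a subunit of the PAF1 complex, rose from 11.0 ± 6.07 to 51.8 ± 12.2 CPM (log2 fold change 2.24, edgeR adjusted p = 0.001535). Ell2, an elongation factor of the super elongation complex, rose from 11.4 ± 4.82 to 34.4 ± 4.56 CPM (1.58, edgeR adjusted p = 0.00734), and Tcea3, a TFIIS gene, rose from 11.4 ± 1.97 to 30.0 ± 9.66 CPM (1.4, edgeR adjusted p = 0.008474). Mllt3 (AF9), of the super elongation complex, fell from 524 ± 45.3 to 265 ± 32.3 CPM (-0.98, edgeR adjusted p = 0.001087). The most abundant of the list in control oocytes per kilobase, Tcea1, was at 150 and 155 CPM (0.05, edgeR adjusted p = 0.8607, but 0.45 with adjusted p = 0.04555 on library totals). Eloa, which encodes elongin A and was named here for its role after its values were seen, was at 14.9 ± 6.99 CPM in controls, against 15.9 ± 6.26 CPM in knockouts (0.09 ± 0.45, edgeR adjusted p = 0.904).

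Of the remaining cullins, Cul5, the elongin BC scaffold next to Cul2, was at 122 ± 69 CPM in knockout and 213 ± 87.9 CPM in control (log2 fold change -0.80, edgeR adjusted p = 0.1401, and -1.24 with adjusted p = 0.02246 without knockout replicate 3). Cul4a was at 44.5 and 70.1 CPM (-0.66, edgeR adjusted p = 0.1459). Rnf7, the RING partner of Cul5, passed the test narrowly, at 19.1 ± 3.55 against 8.03 ± 4.31 CPM (1.25, edgeR adjusted p = 0.04565). That call was lost when any library other than control replicate 2 was left out, with edgeR adjusted p = 0.05268 to 0.1114.

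Of the receptors that bind elongin BC, 4 of 28 tested genes rose (14.3%, against 13.6% of all tested genes) and 6 fell (21.4%, against 12.2%). Asb8, an ankyrin repeat receptor, rose from 8.89 ± 4.51 to 54.7 ± 22.7 CPM (log2 fold change 2.62, edgeR adjusted p = 0.001368), and Klhdc3, a receptor for C-terminal degrons, rose from 14 to 61.4 CPM (2.13, edgeR adjusted p = 0.002675). Socs5 and Socs6, suppressors of cytokine signalling, fell, Socs5 from 51.5 to 12.8 CPM (-2.01, edgeR adjusted p = 0.002417) and Socs6 from 255 ± 20.4 to 111 ± 23.6 CPM (-1.21, edgeR adjusted p = 0.0009054). Lrr1, a Cul2 receptor of replication and the most abundant of the list per kilobase, was at 480 ± 46.2 against 654 ± 69.1 CPM (-0.45, edgeR adjusted p = 0.0464). Its call too was lost without any library other than control replicate 2, with edgeR adjusted p = 0.05845 to 0.106, and on library totals its log2 fold change was -0.04. Vhl, the best known receptor of Cul2, was named here for its role after its values were seen and was too low to be tested, at 0.896 CPM in knockout and 0.0706 CPM in control.

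F-box proteins, the receptors on Skp1 and Cul1, were the largest list, with 61 tested genes. Of these 14 fell (23.0%, against 12.2% of all tested genes) and 6 rose (9.84%, against 13.6%). Fbxw24, the most abundant of them, fell from 3350 ± 1404 to 1116 ± 327 CPM (log2 fold change -1.59, edgeR adjusted p = 0.003661), and Fbxw22 fell from 796 ± 317 to 195 ± 13.5 CPM (-2.03, edgeR adjusted p = 0.0003337). Their relatives Fbxw20, Fbxw21, Fbxw26 and Fbxw28, named after their values were seen, also fell, with log2 fold changes from -1.74 to -0.84. These genes are similar copies, so reads may have been split among them and they are not independent. Fbxo33 fell from 266 to 120 CPM (-1.15, edgeR adjusted p = 0.0009392). Fbxo5 (Emi1), an inhibitor of the anaphase-promoting complex, also named after its values were seen, fell from 338 to 137 CPM (-1.30, edgeR adjusted p = 0.002158).

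In the other direction, Fbxo38 rose from 18.8 ± 1.12 to 76.6 ± 13.0 CPM (2.02 ± 0.22, edgeR adjusted p = 0.0001027). Fbxl21, which acts on cryptochromes in the circadian clock, was at 18.0, 9.34, 4.85 and 5.40 CPM in knockout replicates 1 to 4, whereas the 4 control libraries held 6 counts in all (log2 fold change 6.02, edgeR adjusted p = 0.0007633, and 6.98 with adjusted p = 0.001174 without control replicate 3).

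Of the BTB adaptors of Cul3, 5 of 47 tested genes rose (10.6%) and 8 fell (17%), against 13.6% and 12.2% of all tested genes. Klhl9 fell from 1493 ± 571 to 319 ± 95.7 CPM (log2 fold change -2.22, edgeR adjusted p = 0.0003859). The abundant Kbtbd7 and Kbtbd8 fell from 1955 ± 406 to 811 ± 128 CPM and from 3013 ± 1002 to 1251 ± 358 CPM (both -1.27, edgeR adjusted p = 0.0007516 and 0.004895). Kctd5 fell from 151 to 41.7 CPM (-1.85, edgeR adjusted p = 0.001791). Kctd21 had no count in any control library and 262 counts over the knockout libraries, at least 75.7-fold higher against a floor of 3 counts over the control group (edgeR adjusted p = 0.001358).

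Of the DCAF receptors on Ddb1, 1 of 23 tested genes rose (4.35%) and 4 fell (17.4%), against 13.6% and 12.2% of all tested genes. Wdtc1 rose from 32.5 to 114 CPM (log2 fold change 1.80, edgeR adjusted p = 0.001535). Dtl (Cdt2), the receptor for the replication factor Cdt1, fell from 286 to 143 CPM (-1.0, edgeR adjusted p = 0.005361), and Phip fell from 340 ± 86.3 to 125 ± 11.0 CPM (-1.44, edgeR adjusted p = 0.0004372). Brwd1 fell from 524 to 274 CPM (-0.94, edgeR adjusted p = 0.0009795), but was at -0.36 with adjusted p = 0.07628 once the length trend was removed. The most abundant of the list per kilobase, Dcaf12, was at 308 and 380 CPM (-0.31, edgeR adjusted p = 0.2867).

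Cullins are switched on by Nedd8, a ubiquitin-like protein, and its own enzymes moved in both directions. Of 19 tested genes of neddylation, receptor exchange and ubiquitin transfer, 3 rose (15.8%) and 4 fell (21.1%), against 13.6% and 12.2% of all tested genes. Nedd8 was at 140, 172, 151 and 167 CPM in knockout replicates 1 to 4 and at 51.7, 27.9, 25.5 and 66.6 CPM in control replicates 1 to 4. It rose without overlap from a mean of 42.9 ± 19.7 to 157 ± 14.5 CPM (log2 fold change 1.88, edgeR adjusted p = 0.001096). Uba3, a subunit of the enzyme that activates Nedd8, fell from 221 to 115 CPM (-0.95, edgeR adjusted p = 0.00785). Ube2m and Ube2f, the enzymes that pass Nedd8 to cullins, rose with log2 fold changes of 2.12 and 2.89 (edgeR adjusted p = 0.01352 and 0.04488), both from low control levels and both named after their values were seen.

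Of the 5 Dcun1d genes, whose proteins help to attach Nedd8, 3 fell and 2 did not pass the test, where 12.2% of all tested genes fell. They are part of the neddylation list and were not a list of their own, so nothing is read from this count. Dcun1d5 fell from 201 to 107 CPM (-0.91, edgeR adjusted p = 0.004775). Dcun1d1 fell from 744 to 437 CPM (-0.77, edgeR adjusted p = 0.008175), or -0.37 with adjusted p = 0.06727 on library totals. Cand1, the exchange factor that unloads receptors from cullins, was named for its role after its values were seen and was at 185 ± 3.69 against 220 ± 28.3 CPM (-0.25, edgeR adjusted p = 0.2561).

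**Figure D5:**
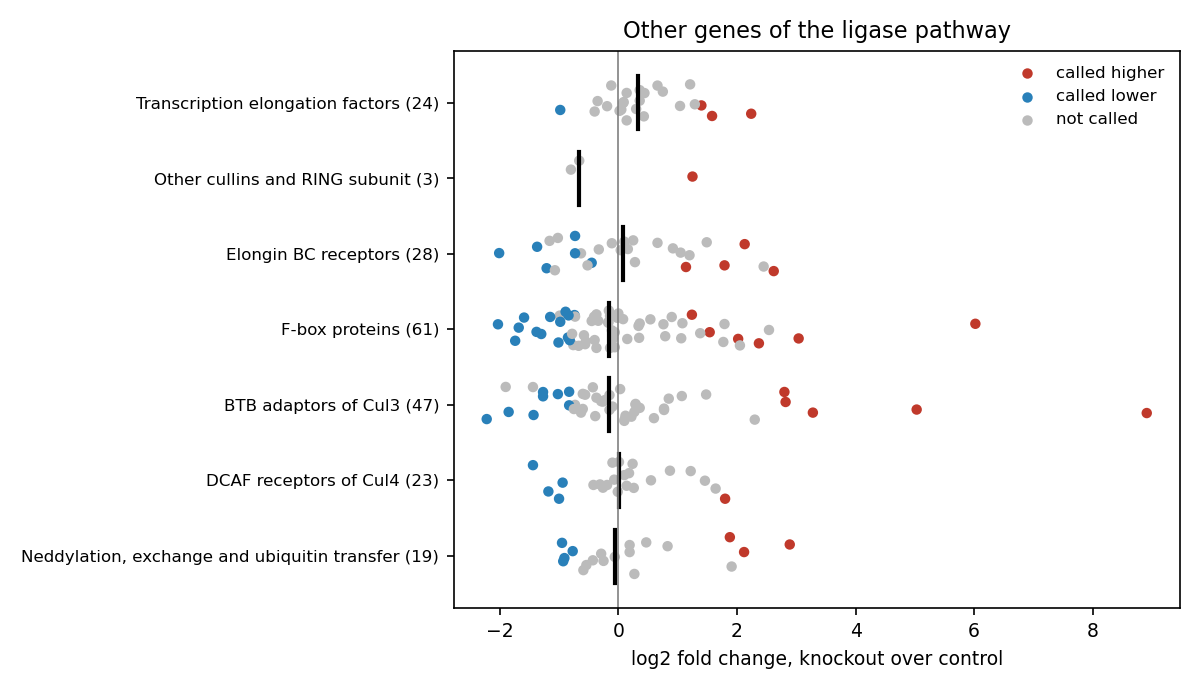
Log2 fold change, knockout over control, of the 205 tested genes of the 7 pathway lists, 1 point per gene, red where the gene rose, blue where it fell and grey where it did not pass the test; black bars are list medians and points are spread vertically for sight. The medians lie between -0.66 and 0.33; the point at the far right is Kctd21, whose fitted value has no meaning as a size because no control count was found.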

How the data were processed

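Single MII oocytes were reverse transcribed and amplified from poly(A) tails with a kit that marks neither strand nor molecule, and sequenced as 75-bp single reads, per the labels' protocols. GSNAP 2014-10-14, featureCounts 1.4.4 and DESeq2 1.3.79 with mm10 were used, per the submitters' processing notes. Counts per gene (Ensembl release 69, mapping quality of at least 1, no strand) were deposited, per the file headers. The deposited comparison table gives log2 fold changes with a standard error, a Wald statistic (a score with no set range) and p-values. It also gives normalized signal and RPKM by the authors, and only its log2 fold changes were used. Its gene positions differ from those of the count table, which were used. Its standard errors, p-values, Wald statistic, signal and RPKM were not used here.

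Differences between genotypes were tested on the deposited counts in R 4.3.3 with the quasi-likelihood test of edgeR 4.0.16, after filterByExpr, with TMM scaling and no covariate, and with Benjamini-Hochberg adjustment over 11066 genes and a threshold of 0.05. Of 37224 genes, 18743 had no count. Each SE is the log2 fold change over the square root of F, and CPM uses TMM-scaled totals. The fit was tested on simulated data. Alternatives were median-of-ratios factors, library totals, no filter, 10 CPM in 4 libraries, DESeq2 1.42.0, the replicate number as a block, a length trend (loess, span 0.5, centred on 0) removed, each library left out and an adjusted p of 0.01. Windows and 3′ ends came from GENCODE M21 transcripts and promoters from RefSeq, with Python 3.11.15. The 10 genes and all lists were chosen with earlier results of these data known. Named were the 10 genes, Setd1b, up to 4 genes per list with the smallest p, the most abundant in control per kb, and the 5 genes most like Elobl; other names are marked as chosen after their values were seen.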

Additional observations from a re-analysis of the deposited data

Results flagged for a closer look

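Ell2 was measured at 41.1 CPM in knockout replicate 2, whereas the other 3 knockout libraries lay between 31.2 and 32.7 CPM, a gap of 0.853 of the group's range, which is above Dixon's critical value for 4 samples. It was the only such value among 94 groups of 4 libraries checked, where chance gives about 1 in 20.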

How the results depend on the processing

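The 10 log2 fold changes kept their sign under every alternative except that of Cul2, -0.04 without knockout replicate 4. With library totals only, 35 genes of the pathway lists were higher and 19 lower, against 23 and 37. With the length trend removed, 26 were higher and 32 lower. At an adjusted p under 0.01, 1391 of all tested genes differed and 14 list genes were higher. With each library left out in turn, 1849 to 2841 genes differed, lowest without knockout replicate 2, and 16 to 24 list genes were higher, 28 to 35 lower and 5 to 6 of the 10 genes above 0. The replicate numbers of the titles did not pair the libraries (correlation of same-numbered deviations -0.107 to -0.0177, 0 libraries nearest to their own number), and with the replicate block 1951 genes differed, with 19 list genes higher and 28 lower, against 2850, 23 and 37. DESeq2 called 3562 genes, with 28 list genes higher and 44 lower. Of the single values of the named list genes and of the 5 genes most like Elobl over all alternatives, 522 stayed on the same side of the threshold with the same direction, 24 lost the call, 2 gained it and 5 (Tcea1 and Dcaf12, not called) changed sign. Low counts limit Elob in control libraries, Fbxl21 and Kctd21.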
